A study of Homo sapiens with 4 samples.

Results

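The genes described here encode the proteins of the cytosolic ribosome. They were chosen by name alone, as the RPL and RPS genes with a plain number and the genes RPLP0, RPLP1, RPLP2 and RPSA, which gave 77 of the 26485 gene names in the tables. Of these, 46 belong to the large subunit and 31 to the small subunit. Sex-linked relatives on the Y chromosome were left out.

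The libraries came from SW1736 and 8505C, established human cell lines derived from anaplastic thyroid cancer, an undifferentiated tumour of the thyroid. SW1736-PTX and 8505C-PTX cells were obtained by raising paclitaxel, a drug that stabilizes microtubules, from 1 nM to 1.5 µM over 6 months, and were then kept at 1.5 µM. The wt cells were grown in the same medium without the drug, so that selection and the continued presence of paclitaxel cannot be told apart. Each of the 4 conditions was sequenced as 1 library of poly(A) RNA, so the tables give no spread between cultures and no test within a line. A fit over both lines with the line as a block would leave 1 residual degree of freedom and was not run.

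The proteins of the ribosome are needed in equal number, since each ribosome holds a single copy of nearly every one. Their mRNAs begin with a stretch of C and T bases, the terminal oligopyrimidine (TOP) motif, through which the mTORC1 kinase controls how strongly they are translated. Making a ribosome also takes RNA polymerase I, which transcribes the ribosomal RNA, and a large set of biogenesis factors that process that RNA and assemble the proteins on it, mostly in the nucleolus. Paralogs, near copies of some of these proteins, can replace them in the ribosome of certain tissues and tumours.

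The libraries held about 43.5 to 57.9 M reads. The least covered ribosomal protein gene had about 650 reads in its lowest library, which gives a counting SD of 3.92%, so counting error is small beside the differences below. FPKM is the number of aligned fragments per length of the gene and depth of the library, and TPM divides that measure by its sum over the library. Changes are log2 ratios of FPKM with 0.1 added to both values, over genes above 0.5 FPKM in at least 1 library of the pair. Where 4 values stand without names, they follow the order SW1736 wt, SW1736-PTX, 8505C wt and 8505C-PTX. A bulk library cannot tell less RNA per cell from fewer cells that make it.

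The identity of the cells was checked against markers first. Of the thyroid follicular markers, TG, TSHR and SLC5A5 were at or near 0 FPKM in every library, whereas the keratin genes KRT8, KRT18 and KRT7 were between 257 and 1437 FPKM. Of the blood and endothelial markers, PTPRC, CD3E, PECAM1 and VWF were at or near 0 in all libraries, and CD14 was between 0.576 and 4.50 FPKM. CDH5, a cadherin of endothelial cells, stood at 0 (SW1736 wt), 0.225 (SW1736-PTX), 55.9 (8505C wt) and 4.53 FPKM (8505C-PTX). The library labelled SW1736-PTX did not carry the marker pattern of SW1736 wt. PAX8, a thyroid transcription factor, stood at 38.2 (SW1736 wt), 0.206 (SW1736-PTX), 0.123 (8505C wt) and 0.146 FPKM (8505C-PTX). NKX2-1, another thyroid transcription factor, was listed at 0 in SW1736 wt and stood at 36.3, 30.5 and 39.0 FPKM in the other three, in the same order. KRT19 was at 266 FPKM in SW1736 wt and at most 0.535 FPKM in the others. On PAX8, NKX2-1 and KRT19 the library labelled SW1736-PTX lay with both 8505C libraries. On CDH5 it lay apart from both 8505C libraries and nearest to SW1736 wt. The results for SW1736-PTX are therefore also given below with 8505C wt as the reference, a choice made after seeing these values. That comparison shares the 8505C wt library with the 8505C pair, so it is not independent of the 8505C results.

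The start of the genes is shown because it is the feature that the family shares beyond its name. In the RefSeq sequences of GRCh38.p14, 62 of the 77 genes had an entry. An unbroken run of at least 5 C or T bases overlapped the 3 bases on either side of the annotated start in 52 of these 62 genes (83.9%), with a median run of 11 bases. Such a run was found in 28.8% of all 16199 genes with an entry, in 20 of 72 mitochondrial ribosomal protein genes (27.8%) and in 16 of 61 ribosome biogenesis factors (26.2%). Among 12 other genes known for TOP mRNAs, 10 had one (83.3%). Below are windows of 30 bases on the strand of the gene, 15 before the annotated start and 15 from it, with the run in capitals. RPLP1 and RPL26 are shown as genes higher in both PTX libraries, RPS6, RPL21 and RPL35A as genes lower in both, RPL39 and RPL36A as genes of chromosome X, RPL7A and RPL35 as genes of chromosome 9, and EEF1A1 as a TOP gene outside the ribosome.
RPLP1 (chr15:69452803-69452832, plus strand): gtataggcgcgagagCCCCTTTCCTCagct
RPL26 (chr17:8383179-8383208, minus strand): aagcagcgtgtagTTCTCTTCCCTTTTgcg
RPS6 (chr9:19380222-19380251, minus strand): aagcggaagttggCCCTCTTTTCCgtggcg
RPL21 (chr13:27251543-27251572, plus strand): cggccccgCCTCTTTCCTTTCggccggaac
RPL35A (chr3:197950175-197950204, plus strand): cggcggggcctcgTCCTTCTCTTaccgcca
RPL39 (chrX:119791616-119791645, minus strand): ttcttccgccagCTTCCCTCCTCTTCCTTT
RPL36A (chrX:101390996-101391025, plus strand): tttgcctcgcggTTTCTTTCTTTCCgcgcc
RPL7A (chr9:133348203-133348232, plus strand): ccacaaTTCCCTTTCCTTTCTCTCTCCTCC
RPL35 (chr9:124861943-124861972, minus strand): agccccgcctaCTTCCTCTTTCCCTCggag
EEF1A1 (chr6:73521018-73521047, minus strand): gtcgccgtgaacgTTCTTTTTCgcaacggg
The runs of RPL39 and RPL7A go on past the window and reach 22 and 25 bases. Shorter runs, of 5 bases, were found in RPS4X and RPL10, and the TOP gene EEF1G had 4. Over all members with an entry, the run was found in 35 of 45 above 0 and 17 of 17 below 0 in SW1736, and in 42 of 52 above 0 and 10 of 10 below 0 in 8505C, without a test. The windows give letters of the reference and not where transcription started in these cells.

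The ribosomal protein genes took a larger share of the mRNA in both PTX libraries than in the wt libraries. Their share of TPM was 17.0% (SW1736 wt), 21.4% (SW1736-PTX), 18.2% (8505C wt) and 22.9% (8505C-PTX). The ratio of PTX to wt was 1.26 in each line, and both PTX libraries lay above both wt libraries. The large subunit held 9.80%, 13.4%, 10.9% and 14.0% of TPM in the same order, and the small subunit 7.23%, 7.97%, 7.24% and 8.96%. With 8505C wt as the reference, SW1736-PTX was again the higher library.

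**Figure D1:**
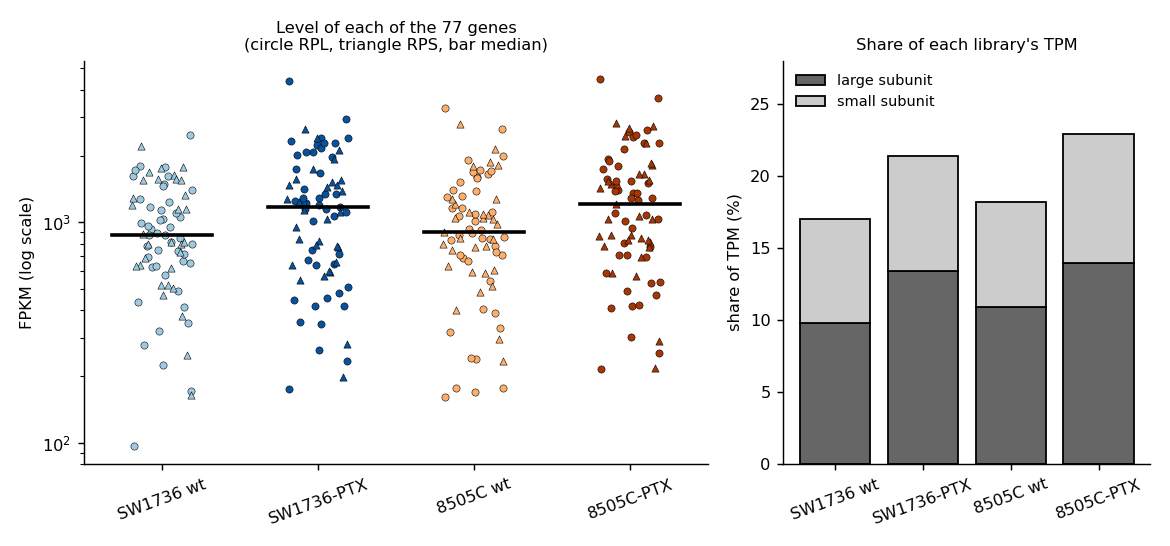
Left, the FPKM of each of the 77 genes in each library on a log scale, with circles for RPL genes, triangles for RPS genes and a bar at the median. Right, the share of TPM of the large and the small subunit in percent. The medians of the PTX libraries, 1177 and 1210 FPKM, lie above those of the wt libraries, 872 and 907 FPKM.

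All 77 genes were abundant in all 4 libraries. The median of the family was 872 (SW1736 wt), 1177 (SW1736-PTX), 907 (8505C wt) and 1210 FPKM (8505C-PTX), whereas the median of all genes above 0.5 FPKM was between 8.64 and 9.81 FPKM. Between 57 and 60 of the 100 most abundant genes of a library were members of the family. The mRNA levels were far from equal, although the proteins are used in equal number. The mean over the libraries ranged from 163 FPKM for RPL34 to 3440 FPKM for RPL8, a 21.2-fold range per length.

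The highest means belonged to RPL8, RPLP1, RPS18, RPS25, RPL37A and RPL27. RPL8, which lies close to the catalytic centre of the large subunit, stood at 1623 (SW1736 wt), 4383 (SW1736-PTX), 3292 (8505C wt) and 4462 FPKM (8505C-PTX). It was the most abundant member in 3 of the libraries, but in SW1736 wt the first place was held by RPLP1, an acidic protein of the ribosomal stalk, at 2482 FPKM. RPLP1 stood at 2940, 2647 and 3648 FPKM in the other libraries. The lowest means belonged to RPL34, RPL22, RPL27A, RPS26, RPS23 and RPL15. RPL34 was at 96.9, 176, 161 and 217 FPKM in the order SW1736 wt, SW1736-PTX, 8505C wt and 8505C-PTX and was the lowest member in all 4 libraries. RPS26, a small subunit protein at the mRNA exit channel, was at 250, 199, 295 and 219 FPKM.

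The library in which a member was highest was not spread evenly. It was 8505C-PTX for 49 members, SW1736-PTX for 11, SW1736 wt for 11 and 8505C wt for 6. The lowest value was in SW1736 wt for 41 members, in 8505C wt for 28, in SW1736-PTX for 5 and in 8505C-PTX for 3. The low end of the family was therefore in a wt library for most of its members. The same counts over all genes are not given here, so it is not known whether this is particular to the family.

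Most members were modestly higher in the PTX library of each pair. In SW1736 the median log2 change of the family was 0.34, with 59 of 77 members above 0, where the median of all genes compared was 0.01. In 8505C the median was 0.44, with 66 of 77 members above 0, where the median of all genes was 0.11. Relative to the median of all genes the family was thus 0.33 higher in both lines. With 8505C wt in place of SW1736 wt, the median of SW1736-PTX was again 0.34, or 0.24 relative to all genes, whose median was 0.10.

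Counted by size, the family differed from other genes in how few members were lower. In SW1736, 26 of 77 members (33.8%) were more than 0.5 higher, against 33.0% of all genes compared, and 8 (10.4%) were more than 0.5 lower, against 32.0% of all genes. In 8505C, 31 members (40.3%) were more than 0.5 higher, against 35.3%, and 2 (2.6%) were more than 0.5 lower, against 26.3%. The share of higher members was close to that of all genes, and the share of lower members was below it. Centred on the median of all genes, the counts in 8505C were 17 higher and 4 lower. The shares of all genes after centring are not given here, so these counts have no background beside them. Highly expressed genes were used as a further background, chosen after seeing the data. Of the 599 other genes with a mean of 100 FPKM or more, 26.9% were more than 0.5 higher and 34.7% more than 0.5 lower in SW1736, with a median of -0.12. In 8505C, 22.6% of 598 such genes were more than 0.5 higher and 36.5% more than 0.5 lower, with a median of -0.24. With 8505C wt as the reference of SW1736-PTX, 19 members were more than 0.5 higher, against 34.9% of all genes, and 3 more than 0.5 lower, against 25.1%.

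Changes as large as the limit of the study, a log2 change beyond 1.5, were almost absent from the family. One member, RPL37, passed it in SW1736 at 1.51, whereas 25.9% of all genes did. None passed it in 8505C, where 20.9% of all genes did. RPL37 (hg38 chr5:40831328-40835285, minus strand) encodes a small zinc-binding protein of the large subunit. It stood at 413 (SW1736 wt), 1177 (SW1736-PTX), 736 (8505C wt) and 1287 FPKM (8505C-PTX). Both PTX values were above both wt values. Its change fell under the limit when TPM was used and when 8505C wt was the reference (0.68).

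The changes in the SW1736 pair and in the 8505C pair did not order the members alike. SW1736-PTX did not carry the marker pattern of SW1736 wt. Differences in cell identity and in the change with selection therefore cannot be told apart here. Across the 77 genes, Pearson's r between the changes in SW1736 and in 8505C was 0.29 and Spearman's rho 0.14, as a description over genes that are not independent replicates. In 54 members the change was above 0 in both lines, in 6 below 0 in both, in 5 above 0 in SW1736 only and in 12 above 0 in 8505C only. Members more than 0.5 higher in both lines numbered 8 (10.4%), against 20.9% of the 13304 genes compared in both lines. RPL21 was more than 0.5 lower in both, as were 15.6% of those genes.

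**Figure D2:**
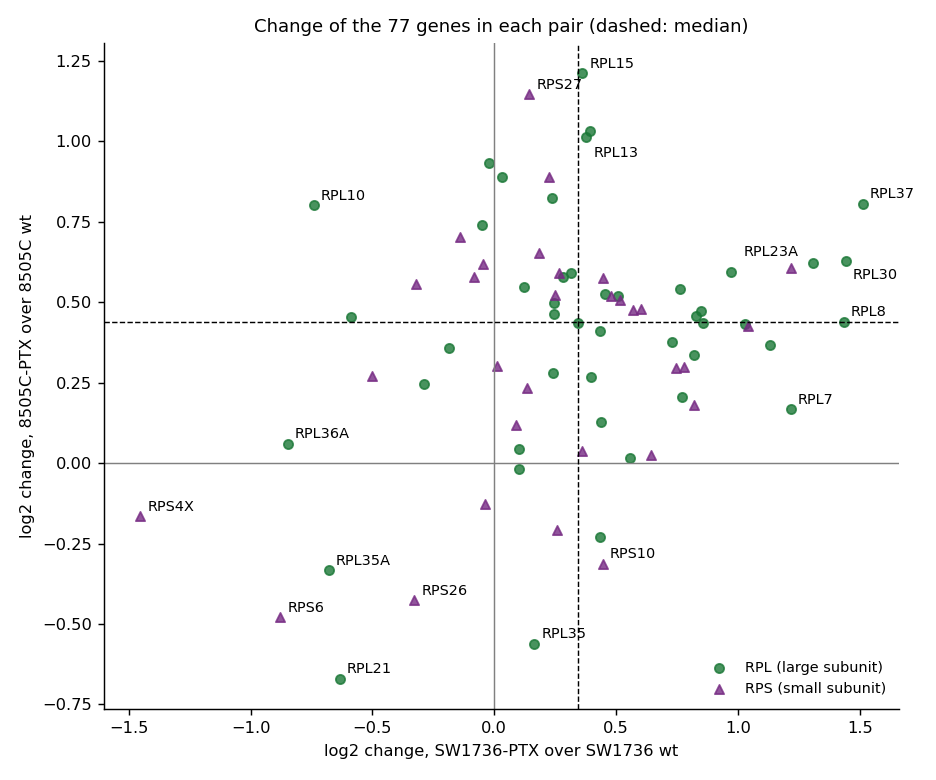
Each point is 1 gene, with the log2 change in SW1736 on the x axis and in 8505C on the y axis, circles for RPL and triangles for RPS genes, and dashed lines at the medians of 0.34 and 0.44. Most points lie in the upper right, the chromosome X genes RPS4X, RPL36A and RPL10 lie to the left, and RPL21, RPS6 and RPL35A lie at the lower left.

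The 6 largest increases in SW1736 were those of RPL37 (1.51), RPL30 (1.44), RPL8 (1.43), RPL23A (1.31), RPL7 (1.22) and RPS20 (1.22). RPL30 stood at 846 (SW1736 wt), 2299 (SW1736-PTX), 1706 (8505C wt) and 2637 FPKM (8505C-PTX). RPL23A, at the exit of the peptide tunnel, stood at 879, 2175, 1585 and 2440 FPKM. In each of these genes SW1736 wt was the lowest of the 4 libraries, and the other three lay closer to each other. Against 8505C wt, SW1736-PTX was higher by 0.68, 0.43, 0.41, 0.46, 0.12 and 0.40 on the log2 scale.

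The 6 largest decreases in SW1736 were those of RPS4X (-1.45), RPS6 (-0.88), RPL36A (-0.85), RPL10 (-0.74), RPL35A (-0.68) and RPL21 (-0.63). RPS6, the small subunit protein phosphorylated by S6 kinase, stood at 1554 (SW1736 wt), 844 (SW1736-PTX), 1216 (8505C wt) and 872 FPKM (8505C-PTX), so that both wt libraries lay above both PTX libraries. RPL35A was at 1029, 642, 892 and 708 FPKM, and RPL21 at 794, 511, 855 and 538 FPKM. In these as well, no PTX value reached a wt value. RPL21 included a second locus of the same name on chromosome 10, with 28.3 to 47.4 FPKM.

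Among the largest increases in 8505C were those of RPL15 (1.21), RPS27 (1.15), RPL13 (1.01) and RPL13A (0.93). RPL15 (hg38 chr3:23916804-23923696, plus strand) stood at 276 (SW1736 wt), 355 (SW1736-PTX), 177 (8505C wt) and 410 FPKM (8505C-PTX). RPS27, a zinc-finger protein of the small subunit, stood at 1578, 1744, 1115 and 2467 FPKM. In these genes 8505C wt was the lowest library. Their changes in SW1736 were between -0.02 (RPL13A) and 0.38 (RPL13). The 6 largest decreases in 8505C were those of RPL21 (-0.67), RPL35 (-0.56), RPS6 (-0.48), RPS26 (-0.43), RPL35A (-0.33) and RPS10 (-0.31).

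The stalk of the large subunit, which recruits the elongation factors, was higher in 8505C-PTX throughout. RPLP0, its anchor, stood at 1038 (SW1736 wt), 1289 (SW1736-PTX), 1019 (8505C wt) and 1533 FPKM (8505C-PTX). RPLP2 stood at 1800, 1739, 1158 and 1934 FPKM. The changes of RPLP0, RPLP1 and RPLP2 were 0.31, 0.24 and -0.05 in SW1736 and 0.59, 0.46 and 0.74 in 8505C.

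RPL5 and RPL11, which carry the ribosomal 5S RNA and can bind the ubiquitin ligase MDM2, were modestly higher in the PTX library of each pair. RPL5 stood at 747, 1014, 929 and 1015 FPKM in the order SW1736 wt, SW1736-PTX, 8505C wt and 8505C-PTX, and RPL11 at 1054, 1339, 1116 and 1508 FPKM. Their changes were 0.44 and 0.34 in SW1736 and 0.13 and 0.43 in 8505C. Beside them, MDM2 stood at 6.44, 6.84, 9.92 and 7.08 FPKM, and CDKN1A, an inhibitor of the cell cycle, at 8.16, 18.5, 13.0 and 13.5 FPKM. Both belong to a list of 4 genes of p53 and its ribosomal checkpoint. Another gene of that list changed by 4.88 in SW1736, beyond the limit of 1.5. The highest difference in the list between the wt libraries, 8505C wt over SW1736 wt, was 4.92. In 8505C the list ran from -0.48 to 0.42, and in SW1736-PTX over 8505C wt from -0.53 to 0.51.

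A list of 7 proteins at the peptide exit tunnel or its mouth, which need not be complete, had a median change of 0.82 in SW1736 and 0.45 in 8505C. In each line 6 of them were above 0. RPL26 stood at 993 (SW1736 wt), 2027 (SW1736-PTX), 1406 (8505C wt) and 1898 FPKM (8505C-PTX). The exceptions were RPL39 in SW1736 and RPL35 in 8505C. A list of 18 genes mutated in Diamond-Blackfan anaemia, an inherited failure of red cell production, need not be complete either. Its medians were 0.17 in SW1736 and 0.31 in 8505C, with 12 above 0 in each line. RPS19, mutated most often in that disease, stood at 686, 550, 400 and 588 FPKM, highest in SW1736 wt.

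Other members have roles outside the ribosome or an unusual form. RPSA, also known as the laminin receptor, stood at 467 (SW1736 wt), 826 (SW1736-PTX), 771 (8505C wt) and 873 FPKM (8505C-PTX), a change of 0.82 and 0.18. Its pseudogene RPSAP58 was listed at 112.5 FPKM in SW1736 wt and between 48.0 and 55.2 FPKM in the others, and adding the pseudogenes brought the change of RPSA in SW1736 to 0.51. RPS27A, made as a fusion with ubiquitin, was among the flattest at 518, 569, 483 and 568 FPKM. RPL41, the shortest ribosomal protein, was at 1461, 1196, 1090 and 1293 FPKM. Over the whole family, 31 named pseudogenes held between 0.193% and 0.396% of the FPKM of the members.

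Members of some chromosomes showed like patterns, and those of others did not. In SW1736 the changes ran from -0.88 (RPS6) to 0.83 (RPL12) on chromosome 9, from -0.68 (RPL35A) to 0.82 (RPSA) on chromosome 3 and from -0.33 (RPS26) to 0.31 (RPLP0) on chromosome 12. The 4 members on chromosome X were highest in SW1736 wt without exception. RPS4X (hg38 chrX:72272603-72277291, minus strand) encodes a small subunit protein and escapes X inactivation. It stood at 1636 (SW1736 wt), 598 (SW1736-PTX), 783 (8505C wt) and 698 FPKM (8505C-PTX). RPL36A was at 815, 452, 404 and 421 FPKM, RPL10 at 578, 346, 239 and 416 FPKM, and RPL39 at 720, 479, 389 and 533 FPKM. Their log2 differences of 8505C wt over SW1736 wt were -1.06, -1.01, -1.28 and -0.89. The median of the other genes of chromosome X in that comparison was -0.80.

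The 4 members on chromosome 8 showed the reverse, with SW1736 wt the lowest library in each. They were RPL7, RPL8, RPL30 and RPS20, whose differences of 8505C wt over SW1736 wt were 1.10, 1.02, 1.01 and 0.81. The median of the other genes of chromosome 8 was 0.57. RPL7 stood at 893 (SW1736 wt), 2076 (SW1736-PTX), 1909 (8505C wt) and 2144 FPKM (8505C-PTX), and RPS20 at 619, 1442, 1089 and 1658 FPKM.

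Chromosome 19 holds 12 members, more than any other. None of them was higher in 8505C wt than in SW1736 wt (median -0.48, other genes of the chromosome -0.65). All 12 were higher in 8505C-PTX than in 8505C wt (median 0.63, other genes 0.37), whereas in SW1736 the median was 0.02 with 7 above 0. The 6 members on chromosome 17 were all higher in both PTX libraries, with medians of 0.91 in SW1736 (other genes 0.56) and 0.45 in 8505C (other genes 0.27). The 3 members on chromosome 4 had a median of 1.04 in SW1736 and 0.42 in 8505C (other genes 0.56 and 0.09). RPL21, the member on chromosome 13, was lower in both lines, as were the other genes of that chromosome, with medians of -0.98 and -0.82.

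**Figure D3:**
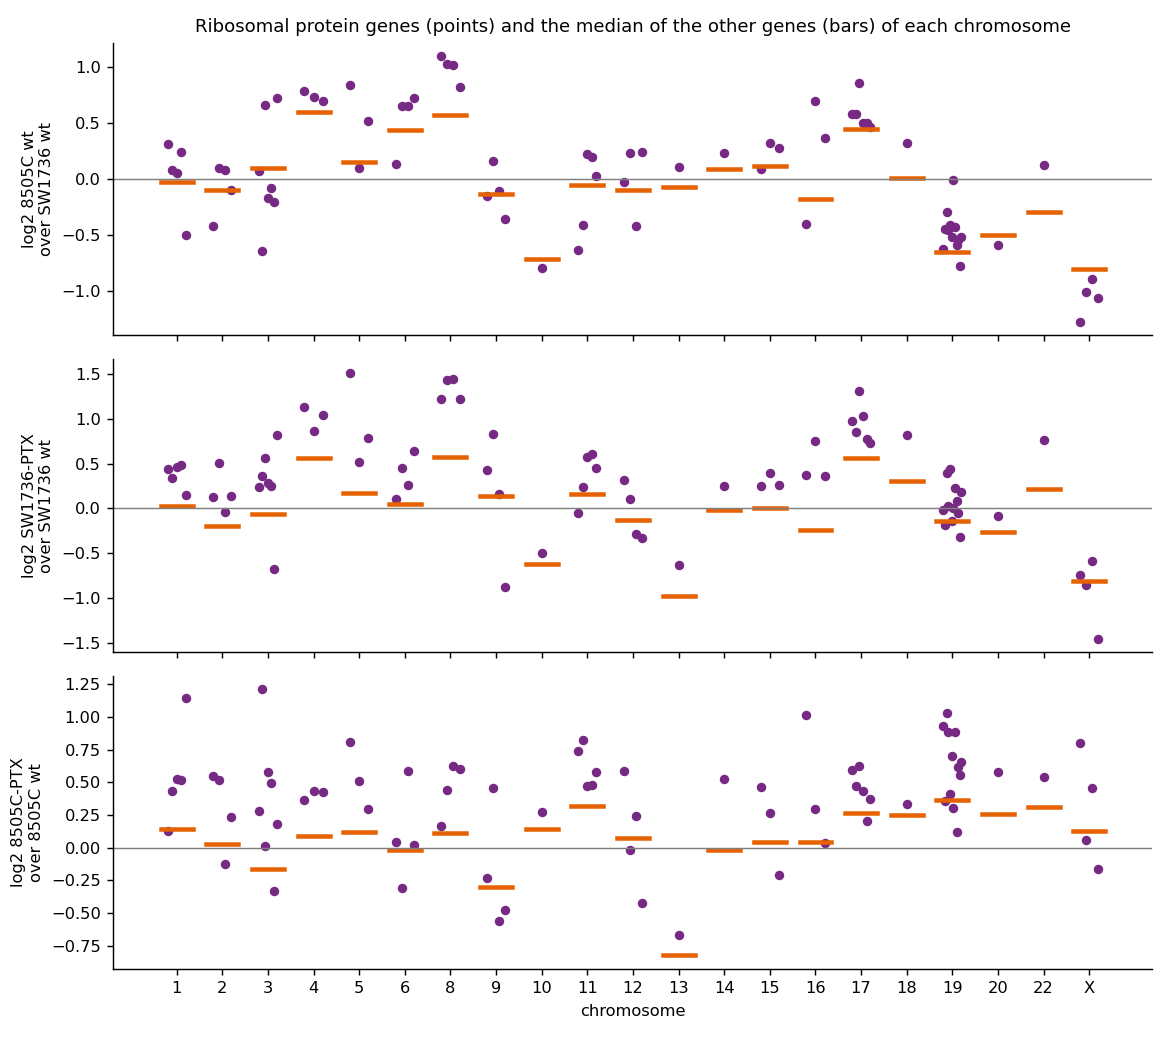
The log2 differences of the 77 genes (points) by chromosome in 3 comparisons, with a bar at the median of the other genes of the chromosome. Points and bars are low on chromosome X and high on chromosome 8 in the upper 2 panels, points of chromosomes 3, 9 and 12 are spread, and most member medians lie above the bars in the lower 2 panels.

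Closer neighbours were compared next. For each member, the median change of the other expressed genes within 5 Mb was taken, from at least 10 neighbours. Across the 77 members, the change of the member and that of its neighbours had a Pearson's r of 0.83 (rho 0.71) in SW1736, 0.57 (rho 0.49) in 8505C and 0.87 (rho 0.84) between the wt libraries. Between the PTX libraries r was 0.72 and rho 0.18. These values describe genes that share libraries and, in part, neighbours. Without chromosomes X and 8, r was 0.74, 0.58 and 0.82. The neighbours of RPS6 had a median of -1.40 in SW1736 and -0.94 in 8505C, those of RPL35A -0.89 and -0.31, and those of RPL21 -1.16 and -1.12, so these 3 lay among genes that were lower too. The other members below 0 in both lines did not share this throughout. RPS26 changed by -0.33 and -0.43, and its neighbours by 0.28 and 0.63. The neighbours of RPS4X had a median of 0.05 in 8505C, and those of RPS7 0.49 in SW1736, where RPS7 changed by -0.04.

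Most members stood above their neighbours. In SW1736, 65 of 77 members had a larger change than the median of their neighbours, by a median of 0.31, and in 8505C 58 of 77 did, by a median of 0.26. Taking the neighbours off reduced the SD across members from 0.57 to 0.32 in SW1736 and from 0.38 to 0.33 in 8505C. The median of the members was above that of the other genes on 21 of the 21 chromosomes that hold a member in SW1736 and on 20 in 8505C. The members farthest above their neighbours were RPS2 in SW1736 (by 0.95) and RPL15 in 8505C (by 1.27). RPS26 was farthest below in both lines, by -0.60 and -1.06. RPS26 has many processed copies in the genome, and how multiply aligned reads were handled is not given in the sources used here. With 8505C wt as the reference of SW1736-PTX, 60 members stood above their neighbours, by a median of 0.122. Between the wt libraries (8505C wt over SW1736 wt) 51 of 77 did, by a median of 0.115. Between the PTX libraries (8505C-PTX over SW1736-PTX) 56 of 77 did, by a median of 0.128. The medians of these comparisons were thus close, and the count was highest for SW1736-PTX over 8505C wt.

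**Figure D4:**
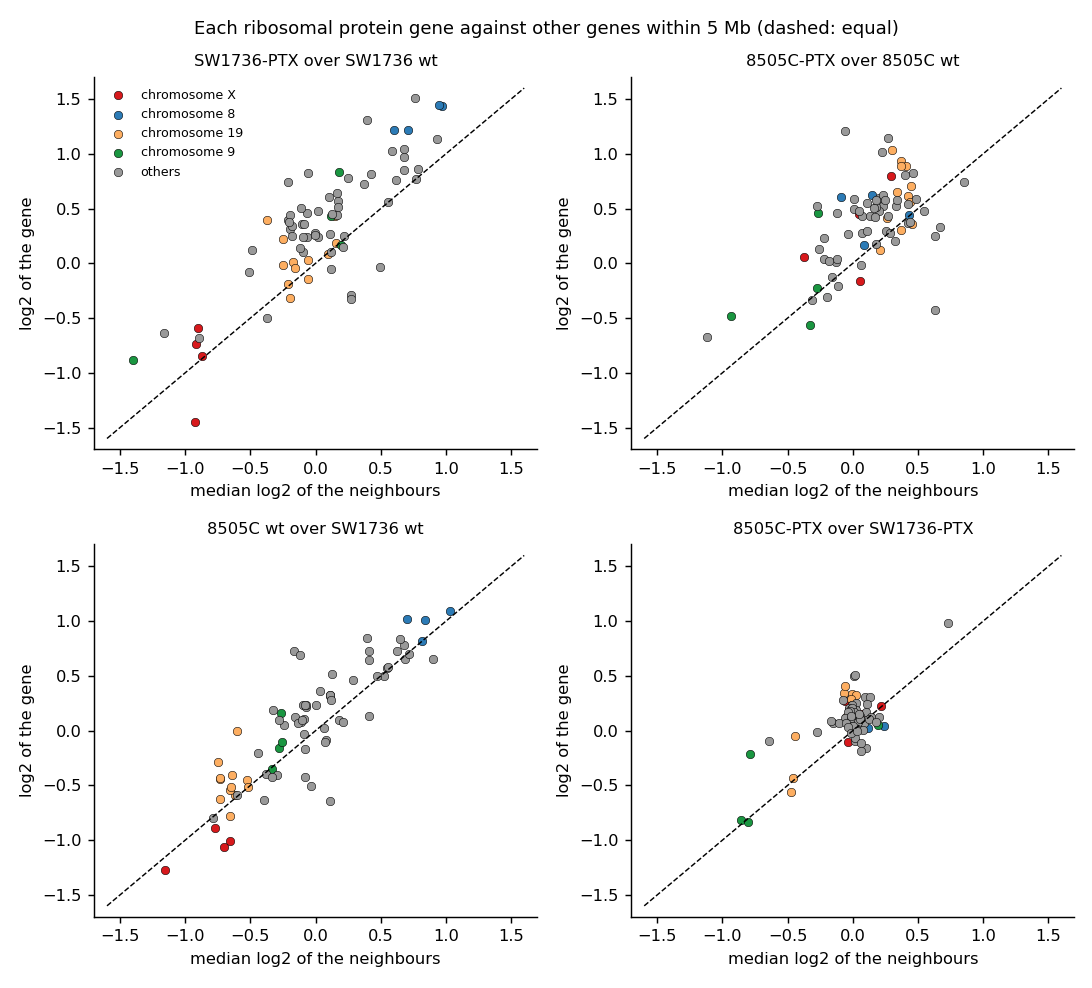
The log2 difference of each gene (y axis) against the median of the other genes within 5 Mb (x axis) in 4 comparisons, with members of chromosomes X, 8, 19 and 9 in colour and a dashed line where both are equal. In both PTX to wt panels most points lie above the line, and in the panel of the PTX libraries most lie close to 0, apart from RPL7A and RPL35 on chromosome 9 at -0.82 and -0.83 and RPS12 at 0.98.

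The wt libraries differed more from each other in this family than the PTX libraries did. Between the wt libraries, 34 members differed by more than 0.5, 19 higher and 15 lower in 8505C wt, against 54.1% of all genes. Between the PTX libraries, 6 members did, 3 in each direction, against 35.1% of all genes. The 3 that were higher in 8505C-PTX were RPS12 (0.98), RPS29 (0.51) and RPS27 (0.50), and the 3 that were lower were RPL7A (-0.82), RPL35 (-0.83) and RPS15 (-0.56). RPS12 on chromosome 6 stood at 1383 FPKM in SW1736-PTX and 2726 in 8505C-PTX, and its neighbours differed by 0.73. RPL7A on chromosome 9 stood at 2402 and 1363 FPKM, and its neighbours differed by -0.85. The SD across members was 0.55 between the wt libraries and 0.25 between the PTX libraries.

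By its ribosomal protein genes, SW1736-PTX lay nearer to 8505C-PTX than to SW1736 wt. The markers PAX8, NKX2-1 and KRT19 went the same way, and CDH5 did not. The nearest library to SW1736-PTX was 8505C-PTX for 53 members (68.8%), SW1736 wt for 13 and 8505C wt for 11, where 58.5% of all genes compared were nearest to 8505C-PTX. The median absolute log2 difference of the members was 0.14 to 8505C-PTX, 0.39 to 8505C wt and 0.44 to SW1736 wt. The rank correlation of the levels of the 77 genes was 0.95 between SW1736-PTX and 8505C-PTX, 0.92 between SW1736-PTX and 8505C wt and 0.80 between SW1736-PTX and SW1736 wt. Of 38 named members, 8 changed sign when 8505C wt was the reference of SW1736-PTX. Among them were RPL10 (-0.74 against SW1736 wt and 0.53 against 8505C wt) and RPL36A (-0.85 and 0.16).

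Ribosomal proteins with other names behaved in part like the family. RACK1, listed under its older symbol GNB2L1, stood at 1119 (SW1736 wt), 1805 (SW1736-PTX), 1310 (8505C wt) and 2119 FPKM (8505C-PTX), a change of 0.69 in each line. FAU, which encodes a small subunit protein fused to a ubiquitin-like domain, changed by 0.01 and 0.09.

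The paralogs did not share the direction of the family. Of 8 paralogs, RPL3L and RPL10L, known from muscle and testis, were at or near 0 FPKM. RPL22L1, which can replace RPL22, stood at 11.8 (SW1736 wt), 3.19 (SW1736-PTX), 37.9 (8505C wt) and 2.99 FPKM (8505C-PTX). Both PTX libraries lay below both wt libraries, and the changes of -1.85 and -3.62 passed the limit of 1.5 in both lines. RPL22 itself stood at 171, 235, 177 and 255 FPKM, so that both PTX libraries lay above both wt libraries. RPL7L1 was at 63.9, 40.8, 130 and 46.8 FPKM (changes -0.64 and -1.47), and RPL26L1 at 49.4, 47.8, 74.1 and 29.6 FPKM (-0.05 and -1.32). RPL39L was at 15.5, 34.9, 42.3 and 28.8 FPKM, RPS27L at 40.5, 29.5, 18.7 and 29.6 FPKM, and RPL36AL changed by -0.34 in each line. Only RPL39L in SW1736 and RPS27L in 8505C were more than 0.5 higher.

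The factors that build ribosomes were lower where the ribosomal proteins were higher. Of 73 ribosome biogenesis factors, 46 were more than 0.5 lower in SW1736-PTX and 65 in 8505C-PTX, against 3 and 1 that were more than 0.5 higher, with medians of -0.72 and -1.03. The background of lower genes was 32.0% and 26.3%, as above. NOL6, a component of the small subunit processome, stood at 31.1 (SW1736 wt), 5.92 (SW1736-PTX), 29.0 (8505C wt) and 4.98 FPKM (8505C-PTX). RBM28, a nucleolar RNA-binding protein, was at 28.8, 5.08, 16.7 and 4.68 FPKM. Both were called lower in both lines, at -2.37 and -2.52 for NOL6 and -2.48 and -1.81 for RBM28. RRP12, a factor for the export of the subunits, changed by -3.50 and -1.34.

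All 6 dedicated chaperones of ribosomal proteins were lower in both lines, with medians of -1.17 and -1.04. TSR2, the chaperone of RPS26, stood at 75.6 (SW1736 wt), 20.1 (SW1736-PTX), 51.3 (8505C wt) and 26.3 FPKM (8505C-PTX). BCCIP, a chaperone of RPL23, was at 131, 50.4, 101 and 42.3 FPKM, and GRWD1, a chaperone of RPL3, at 46.0, 19.3, 49.5 and 18.8 FPKM. No PTX value of these reached a wt value. The clients RPL23 and RPL3 were higher in both PTX libraries, and RPS26 was lower in both. Of 15 genes of the RNA polymerase I machinery, 5 were more than 0.5 lower in SW1736 and 11 in 8505C, against 2 that were higher in each. In SW1736 this was 33.3%, near the 32.0% of all genes, and in 8505C 73.3%, against 26.3%. CD3EAP, a subunit now named POLR1G, was called lower in both lines (-2.41 and -1.66).

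Mitochondrial ribosomal proteins, encoded in the nucleus for the ribosome of another compartment, also went the other way. Of 81, 30 were more than 0.5 lower in SW1736 and 42 in 8505C, against 7 and 2 higher, with medians of -0.23 and -0.52. In SW1736 the 30 of 81 were close to the background of 32.0%. MRPL47 stood at 56.7 (SW1736 wt), 18.7 (SW1736-PTX), 55.4 (8505C wt) and 15.8 FPKM (8505C-PTX), and was called lower in both lines.

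The medians of the other TOP genes and of the elongation factors were above 0, though not every gene was. Of 20 other TOP mRNAs, 12 were more than 0.5 higher in SW1736 and 7 in 8505C, against 0 and 1 lower, with medians of 0.64 and 0.29. The higher genes were 60.0% in SW1736, against 33.0% of all genes, and 35.0% in 8505C, near the 35.3% of all genes, where 5.0% were lower, against 26.3%. EEF1A1, which brings transfer RNA to the ribosome, stood at 1317 (SW1736 wt), 2607 (SW1736-PTX), 1688 (8505C wt) and 3672 FPKM (8505C-PTX). EEF1G was at 960, 1603, 1045 and 1736 FPKM. EIF4B, an initiation factor with a TOP mRNA, was at 83.6, 224, 127 and 269 FPKM. In all of these both PTX libraries lay above both wt libraries. The exception among TOP genes was NPM1, a nucleolar protein, at 698, 998, 1853 and 1003 FPKM and a change of 0.52 and -0.89.

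Of 8 elongation factors, 5 of them also in the TOP list, 4 were more than 0.5 higher and 2 more than 0.5 lower in each line, and in 8505C 5 were above 0. EIF5A, which relieves stalls at proline, was lower in both lines, at 609 (SW1736 wt), 337 (SW1736-PTX), 926 (8505C wt) and 306 FPKM (8505C-PTX). Its relative EIF5A2 changed by -3.98 and -1.33, and EEF1A2 by 3.71 and 2.38 from 4.48 and 1.38 FPKM. The 36 initiation factors showed no common direction, with medians of -0.20 and -0.26, and 13 above 0 in each line. EIF4G1, the scaffold of the cap-binding complex, stood at 293, 79.0, 251 and 75.1 FPKM and was called lower in both lines (-1.89 and -1.74). Of 10 factors that rescue stalled ribosomes, 5 (50.0%) in SW1736 and 6 (60.0%) in 8505C were more than 0.5 lower, against 32.0% and 26.3% of all genes.

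The non-coding hosts of small nucleolar RNAs, several of which have TOP starts, were led by GAS5. It stood at 59.3 (SW1736 wt), 292 (SW1736-PTX), 103 (8505C wt) and 229 FPKM (8505C-PTX). SNHG6 was at 56.7, 161, 82.7 and 183 FPKM, and ZFAS1 at 113, 279, 106 and 219 FPKM. Both PTX libraries again lay above both wt libraries. Of the 8 hosts compared, 3 (37.5%) were more than 0.5 higher in SW1736, near the 33.0% of all genes, and 5 (62.5%) in 8505C, against 35.3%.

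With 8505C wt as the reference of SW1736-PTX, the 6 lists that follow stayed on their side of 0, whereas the mTORC1 genes went from 0.30 to -0.23. Since 8505C wt is also the reference of 8505C-PTX, likeness to the 8505C results is in part built in. The medians were -0.89 for the biogenesis factors (55 of 73 more than 0.5 lower), -0.92 for the chaperones, -0.54 for RNA polymerase I and -0.43 for the mitochondrial ribosomal proteins (33 of 81 more than 0.5 lower, against 25.1% of all genes). They were 0.54 for the elongation factors and 0.18 for the other TOP mRNAs, and RPL22L1 was again called lower (-3.53). The peptide exit tunnel genes had a median of 0.46 and the Diamond-Blackfan anaemia genes 0.27.

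**Figure D5:**
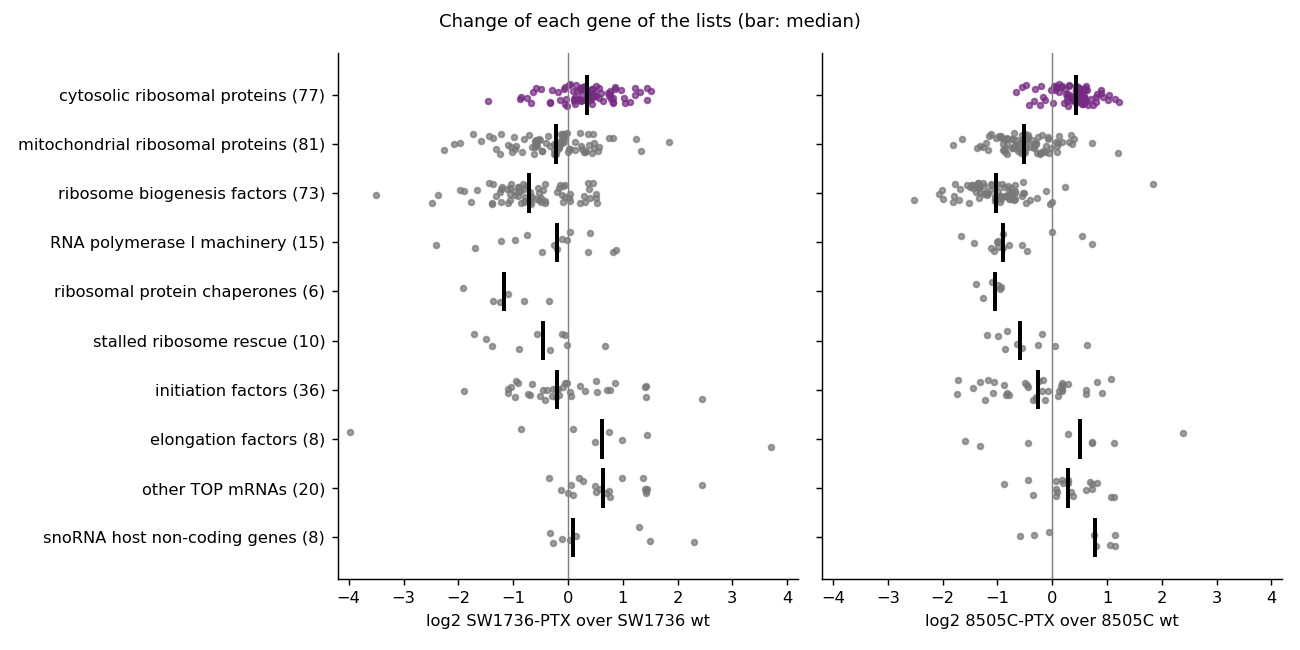
The log2 change of every gene of 10 lists in SW1736 (left) and 8505C (right), with the number of genes compared in brackets and a bar at the median. Ribosomal proteins, elongation factors and other TOP mRNAs have medians above 0, and biogenesis factors, chaperones, RNA polymerase I and mitochondrial ribosomal proteins have medians below 0 in both lines.

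Of the 6 genes of the MYC network, 4 were more than 0.5 higher in each line, with a median of 0.84 in each, and 1 in SW1736 and 0 in 8505C more than 0.5 lower. MYC, which drives ribosome biogenesis genes, stood at 55.0 (SW1736 wt), 113 (SW1736-PTX), 93.0 (8505C wt) and 120 FPKM (8505C-PTX). MXI1, which opposes MYC, was at 7.39, 19.6, 4.85 and 27.6 FPKM. MNT, another repressor of this network, was at 9.50, 14.8, 7.36 and 14.2 FPKM, and MYCN was below 1 FPKM in all libraries. Of 15 genes of mTORC1 and the control of TOP mRNAs, 3 were more than 0.5 higher in each line, and 3 in SW1736 and 4 in 8505C more than 0.5 lower. Among all genes, 33.0% and 35.3% were higher and 32.0% and 26.3% lower, so these shares were below or close to the background. DEPTOR, an inhibitor of mTOR, was called higher in both lines, at 1.09, 11.9, 3.63 and 19.4 FPKM. The mRNA levels do not show how strongly a TOP mRNA was translated or how active mTORC1 was, which these libraries did not measure.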

How the data were processed

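The poly(A) RNA of 4 conditions was sequenced by the authors as single-end reads of 75 bases, with 1 library per condition. Per the study's methods, the reads were converted with bcl2fastq 2.20, trimmed with Cutadapt and ERNE, aligned to hg38 with STAR and quantified with StringTie. The annotation, the treatment of multiply aligned reads and the versions of ERNE, STAR and StringTie are not given in the sources used here. The deposited coverage (a signal) is the mean depth per base of a gene and was not scaled by the authors. The deposited FPKM is scaled to length and depth, and the deposited TPM to an equal total per library.

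From the FPKM, rows of a name were summed and log2 ratios computed with a pseudocount of 0.1, over genes above 0.5 FPKM in at least 1 library of the pair. A log2 change beyond 1.5, the study's limit, was called, and 0.5 was used as a smaller limit. Approximate reads came from coverage and FPKM. With 1 library per condition there is no replicate error within a line, and no test was run. Named members were those with the 6 largest and 6 smallest changes per line, the 6 highest and 6 lowest means, those called, and a set with known roles. Some genes that this rule names are not reported here. In other lists, genes called the same way in both lines and up to 3 of the largest changes were named. Genes named by chromosome, by their difference between the PTX libraries or as companions of these were chosen after their values were seen. The members and gene lists were chosen with earlier results of these data known. Start sequences are from RefSeq, GRCh38.p14, and neighbours were other genes within 5 Mb. Tables were handled with pandas 2.3.3 and NumPy 2.4.6 in Python 3.11.15, and plots drawn with matplotlib 3.10.9. The computation was tested on simulated data. Alternatives changed the unit, pseudocount, filter, centring, repeated names, read sharing, threshold and reference library.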

Additional observations from a re-analysis of the deposited data

Results flagged for a closer look

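RPL10, a large subunit protein, and RPL39L, a paralog of RPL39, changed in opposite directions in the lines, each by more than 0.5 on the log2 scale. RPL10 changed by -0.74 in SW1736 and 0.80 in 8505C. RPL39L changed by 1.17 in SW1736 and -0.55 in 8505C. The difference between the lines was not tested, since each condition has 1 library. RPL10 was highest in SW1736 wt and lowest in 8505C wt, and against 8505C wt the change of SW1736-PTX was 0.53. RPL39L was lowest in SW1736 wt, and against 8505C wt its change in SW1736-PTX was -0.27. With that reference, neither gene changed in opposite directions.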

How the results depend on the processing

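With 1 library per condition, no replicate could be left out. No analysis with the lines as blocks was run. The median change of the family stayed above 0 in both lines under every alternative tried. With TPM the medians were 0.30 in SW1736 and 0.40 in 8505C, and 0 members passed 1.5 in SW1736. Centred on the median of all genes, the 8505C median was 0.33, with 17 members above 0.5 and 4 below -0.5, without a centred share of all genes. Without chromosomes X and 8, 4 members were below -0.5 in SW1736. With 8505C wt as the reference of SW1736-PTX, 0 members passed 1.5 and 3 were below -0.5. A limit of 1 in place of 1.5 gave 10 members in SW1736, against 5732 of all 14202 genes compared. In 8505C it gave 4 members, against 4892 of all 13794 genes compared. With pseudogenes added, the shares of TPM were 17.1% in SW1736 wt, 21.4% in SW1736-PTX, 18.2% in 8505C wt and 22.996% in 8505C-PTX. Of 76 changes of named members, 1 changed sign with TPM and 2 with centring, and 8 of 38 changed sign with 8505C wt as the reference. The pseudocounts of 1 and 0.01, the filters, the use of the highest row, added pseudogenes and the coverage unit changed no sign. Leaving the mitochondrial genome out of the TPM total was not run, as the tables used here have 0 rows on it. Except where stated, the cause of these shifts was not tested.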
